A study of Mus musculus with 12 samples.

Results

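The effect of a guide against Rnf19a was measured in cells that had been exposed for 24 h to a treatment the labels call IR, which they do not spell out. The comparison took the 3 libraries labelled sgRnf19a with IR against the 3 labelled control with IR, 6 of the 12 RNA-seq libraries of the series, and every gene with enough counts, 18183 in all. The other 6 libraries, the same guides without IR, served to show where the guide effect was already present. By their labels these are B16F10 cells, a mouse melanoma line that grows as a transplanted tumour. All 4 groups have a guide: sgNC, the control guide, gives control and control_IR, and sgRnf19a gives sgRnf19a and sgRnf19a_IR, cells the labels call deficient in Rnf19a. The labels give neither the guide sequence nor how many clones a line holds, and nothing in them says whether replicates are separate cultures. The p-values below therefore measure the spread between these libraries, which may be technical. The series title concerns the kinase RSK1, the ubiquitin pathway and immune suppression.

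Rnf19a codes for an E3 ubiquitin ligase of the RING-between-RING kind, which passes ubiquitin through its own catalytic cysteine to a substrate. The gene list with the largest share of members called higher, 85 of 89, was that of the interferon response. These were a small part of the 3812 genes called higher. The interferon response works in steps. Nucleic acid sensors such as cGAS, TLR3 and the RIG-I-like receptors switch on interferon genes, secreted interferon binds its receptor, and JAK kinases then pass the signal to the nucleus. There a transcription factor complex that includes IRF9 binds a short DNA element, the interferon-stimulated response element, in front of the many interferon-stimulated genes. Their products block viral replication, load peptides on MHC class I and attract T cells.

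Levels are given in CPM, counts scaled by TMM to the size of each library. Where 3 values are given for a group they follow the order control_IR replicates 1, 4 and 5 and sgRnf19a_IR replicates 1, 3 and 4, numbers taken from the column names, which are not the replicate numbers of the labels. A log2 fold change is sgRnf19a_IR relative to control_IR, and a gene was called higher or lower at an adjusted p under 0.05 in edgeR's quasi-likelihood test (Benjamini-Hochberg over 18183 genes). A corrected log2 fold change is the same quantity after each library's trend with transcript length and GC content was removed.

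The 6 IR-treated libraries held 34.3 to 45.6 M counts each. The kinds of RNA in them differed. Ribosomal RNA genes held 15.1% to 20.4% of counts in control_IR and 11.4% to 22.2% in sgRnf19a_IR. The median log2 level of protein-coding genes over 6000 bp minus that of genes under 1000 bp was -1.71 to -1.48 in control_IR, and -0.50, -1.28 and 0.49 in sgRnf19a_IR replicates 1, 3 and 4. On the first principal component, which held 46.9% of the variance, sgRnf19a_IR replicate 4 was at -42.1, within the range of the 6 untreated libraries (-104 to -31.2), and the other 5 IR-treated libraries between 51 and 135. Across 11146 protein-coding genes the log2 fold change of the guide had a Spearman rho of 0.35 with transcript length and -0.62 with GC content, against 0.03 and 0.02 after the correction; genes are not independent, so no p is given. The corrected value is given for most lists, and for named genes where it differs from the uncorrected one by more than 1.5-fold or ends a call; a few others have it too. Values without replicate 4 are given for many of the results that it led, but not for all. Of 13 melanocyte markers 6 (Tyr, Tyrp1, Mlana, Slc45a2, Oca2 and Gpr143) had 0 counts in all 12 libraries. The 13 summed to only 4.05 to 4.24 CPM in control_IR, most of it Mitf (mean 2.53 CPM), and to 5.38 to 12.8 CPM in sgRnf19a_IR. Pmel had 0 counts in control_IR. Krt8, a keratin of simple epithelia, was at 708, 598 and 602 CPM in control_IR. These levels stand beside a melanoma label, and whether the line is as labelled was not tested.

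**Figure D1:**
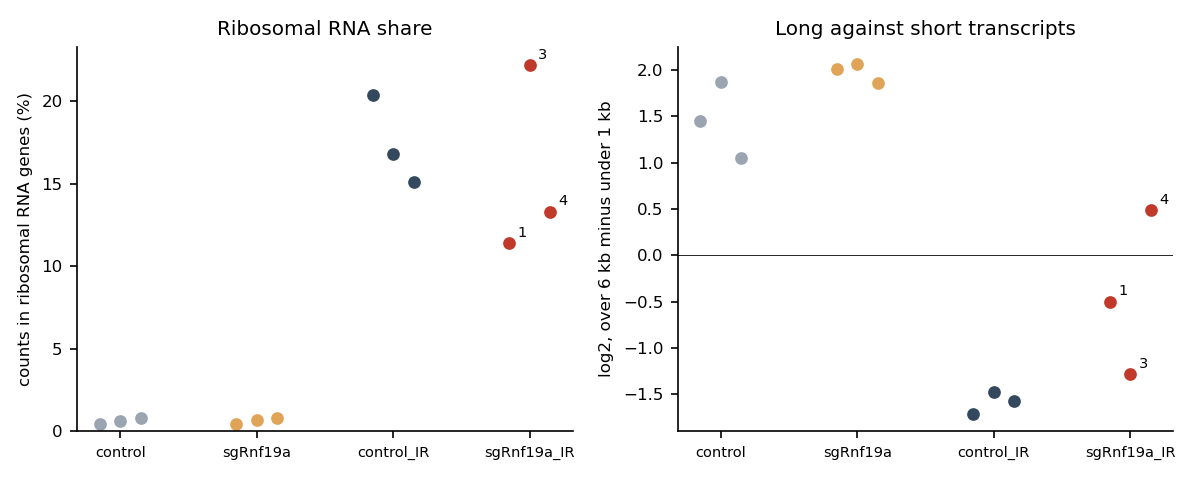
Each point is 1 library, in its group along the horizontal axis. The left panel gives the share of counts in ribosomal RNA genes (%) and the right panel the median log2 level of genes over 6 kb minus that of genes under 1 kb. The 3 control_IR libraries lie between -1.71 and -1.48 on the right, the sgRnf19a_IR libraries, marked with their numbers, between -1.28 and 0.49.

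Rnf19a itself (ENSMUSG00000022280, chromosome 15, 36239933 to 36283147, minus strand, mm10) was at 4.37, 8.06 and 5.39 CPM in control_IR and at 18.1, 11.6 and 37.7 CPM in sgRnf19a_IR. Every sgRnf19a_IR library was above every control_IR library, so the mRNA of the targeted gene was higher, not lower, with its guide. The difference was 3.78-fold (log2 fold change 1.92 with an SE of 0.38, edgeR adjusted p = 0.00352). It was 1.19 after the correction (edgeR adjusted p = 0.00449) and 1.32 without sgRnf19a_IR replicate 4. Without IR the means were 28.1 ± 6.09 CPM in control and 25.2 ± 2.43 CPM in sgRnf19a (SD, n = 3 per group; log2 fold change -0.16, edgeR adjusted p = 0.881). An RNA level does not show whether a guide edited its gene, so it neither bears out nor contradicts the labels.

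Across all genes 3812 were called higher (21% of those tested) and 2328 lower (12.8%), which makes 62.1% of calls higher. That share was 52.2% with upper-quartile scaling, which moved the median log2 fold change of all genes from 0.07 to -0.055, and 48% after the correction, where 2609 genes were called higher (14.4%) and 2821 lower (15.5%). Without sgRnf19a_IR replicate 4 there were 3061 and 1819. Of the calls, 3548 (19.5% of genes) were made in the same direction with and without the correction. Large differences were mostly rises: 335 called genes were at least 16-fold higher and 76 at least 16-fold lower, and 35 of the 335 are in the list of interferon-stimulated genes. These fold changes are fitted values, which depend on the prior count where a gene is near 0 in one group. The plot of list counts and medians gives every list except those of cell type markers, beside the share of all genes called.

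**Figure D2:**
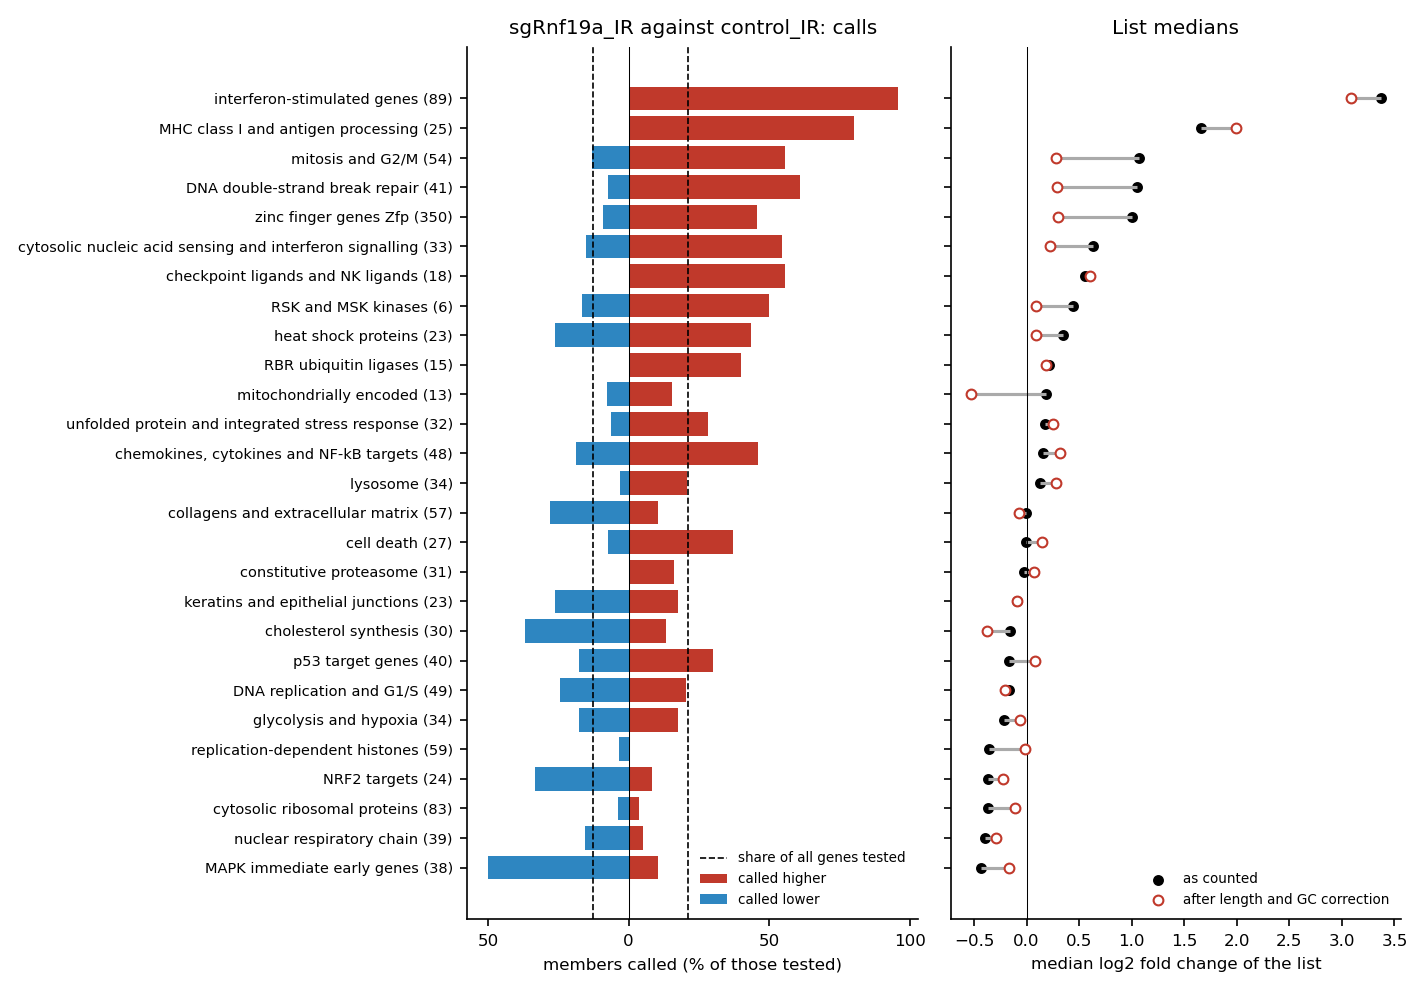
The lists of cell type markers are not drawn. For each other gene list (number of genes tested in brackets) the left panel gives the percentage of members called in sgRnf19a_IR, higher (right, red) or lower (left, blue). Dashed lines are at the shares of all genes, 21% and 12.8%. The right panel gives the list's median log2 fold change as counted (filled) and after the length and GC correction (open). Interferon-stimulated genes stand at 95.5% called higher and a median of 3.37, MAPK immediate early genes at 50% called lower and a median of -0.43.

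Interferon-stimulated genes were higher in IR-treated sgRnf19a cells almost throughout. Of 89 tested, 85 were called higher and 0 lower, beside 21% of all genes called higher. At an unadjusted p under 0.05 edgeR gave 86 and 0, and DESeq2 called 85 and 0. In the same 85, no sgRnf19a_IR library overlapped a control_IR library, beside 23% of all genes. The median log2 fold change of the list was 3.37 (0.07 for all genes), and 3.09 after the correction, with 86 called higher. Leaving out any 1 of the 6 libraries gave between 84 and 86. Of 17 immune cell markers 4 had 0 counts in all 12 libraries, 0 of the 7 tested were called by edgeR (1 at an unadjusted p under 0.05, and 1 by DESeq2), and their summed level was 10.6 to 30.1 CPM in control_IR and 24.5 to 55.0 CPM in sgRnf19a_IR. The T cell genes Cd3e and Cd8a had 0 counts in the 6 IR-treated libraries. Other members were detected, and the log2 fold changes of the 7 tested ran from 0.134 to 2.72 (median 1.12, corrected 0.80). Lyz2 was at 6.14, 6.94 and 0.188 CPM in control_IR and at 7.24, 15.9 and 5.67 CPM in sgRnf19a_IR, overlapping. Csf1r was at 2.485, 2.98 and 0.537 CPM and at 1.32, 8.49 and 6.28 CPM, also overlapping. Of 9 endothelial markers 6 were tested and 1 was called higher (16.7%, beside 21% of all genes), with a median of 2.82 (corrected 2.9). The 9 summed to 1.55 to 2.805 CPM in control_IR and 6.94 to 8.73 CPM in sgRnf19a_IR, low levels that did not overlap. Tek and Erg among them had 0 counts in control_IR. The part of immune or endothelial cells in the result was not tested. In bulk RNA, more cells that respond and more RNA per cell cannot be told apart.

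Ifit3 (ENSMUSG00000074896, chromosome 19, 34583531 to 34588731), an antiviral protein that binds foreign RNA together with IFIT1, was at 12.5, 19.99 and 14.7 CPM in control_IR and at 810, 552 and 1231 CPM in sgRnf19a_IR. The lowest sgRnf19a_IR library lay far above the highest control_IR library. The difference was 55.02-fold (log2 fold change 5.78 with an SE of 0.32, edgeR adjusted p = 8.84e-07; corrected 5.64). Tgtp1 (ENSMUSG00000078922, chromosome 11, 48985327 to 48994172), a T cell specific GTPase of the immunity-related GTPase family, was at 7.14, 9.21 and 7.701 CPM in control_IR and at 512, 428 and 620.3 CPM in sgRnf19a_IR, 64.8-fold higher (log2 fold change 6.02 with an SE of 0.31, edgeR adjusted p = 5.62e-07; corrected 5.33). Its neighbour Tgtp2 (log2 fold change 5.54, corrected 4.85) and the pair Ifit3 and Ifit3b (log2 fold change 5.62) are near-identical copies, so reads could be split between them and each value is uncertain. Zbp1 (ENSMUSG00000027514, chromosome 2, 173206612 to 173218923), a sensor of Z-form nucleic acids that can start necroptosis, was at 9.69, 11.8 and 10.1 CPM in control_IR and at 219, 184 and 182 CPM in sgRnf19a_IR. Its libraries lay close together within each group, and the difference was 18.6-fold (log2 fold change 4.21 with an SE of 0.14, edgeR adjusted p = 4.21e-08; corrected 4.27).

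Other effectors moved the same way. Ifit1, the cap-binding member of its family, was at 46.3, 94.5 and 62.4 CPM in control_IR and at 1763, 1402 and 2620 CPM in sgRnf19a_IR (log2 fold change 4.83, corrected 4.12). The GTPase gene Ifi47 was at 7.85, 8.89 and 8.27 CPM and at 245, 209.5 and 239 CPM (log2 fold change 4.79). Oas1g, of the oligoadenylate synthetases that activate RNase L, was at 6.36, 7.06 and 5.66 CPM and at 154, 134 and 151 CPM (log2 fold change 4.53). In each of these the groups lay more than an order of magnitude apart. Iigp1, another immunity-related GTPase, went from 4.08, 6.597 and 6.01 to 234, 135 and 479 CPM (log2 fold change 5.66, corrected 4.58), and Ddx60, a helicase, from 1.42, 1.52 and 1.85 to 28.1, 14.6 and 185 CPM (log2 fold change 5.57, corrected 3.84). Both were led by sgRnf19a_IR replicate 4, and without it their log2 fold changes were 5.05 and 3.74. Ifit1bl1 gave a log2 fold change of 5.81 (corrected 5.05), shared with its copy Ifit1bl2, which had 13 counts in control_IR. Gbp4, a guanylate-binding protein gene, had 35 counts in control_IR and 1892 in sgRnf19a_IR.

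Regulators in the list rose as well. Irf7, which amplifies interferon transcription, was at 52.1, 58.8 and 55.1 CPM in control_IR and at 351, 341 and 217 CPM in sgRnf19a_IR (log2 fold change 2.45). Isg15, a ubiquitin-like modifier, was at 98.8, 136 and 114 CPM and at 627, 636 and 421 CPM (log2 fold change 2.27, corrected 2.66). No library of one group reached the other group for either gene. Usp18, the protease that removes ISG15 and damps the receptor, was 8.21-fold higher and Rtp4 11.7-fold higher. The 4 members not called were Epsti1, Ogfr, Ifi44l and Slfn5.

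**Figure D3:**
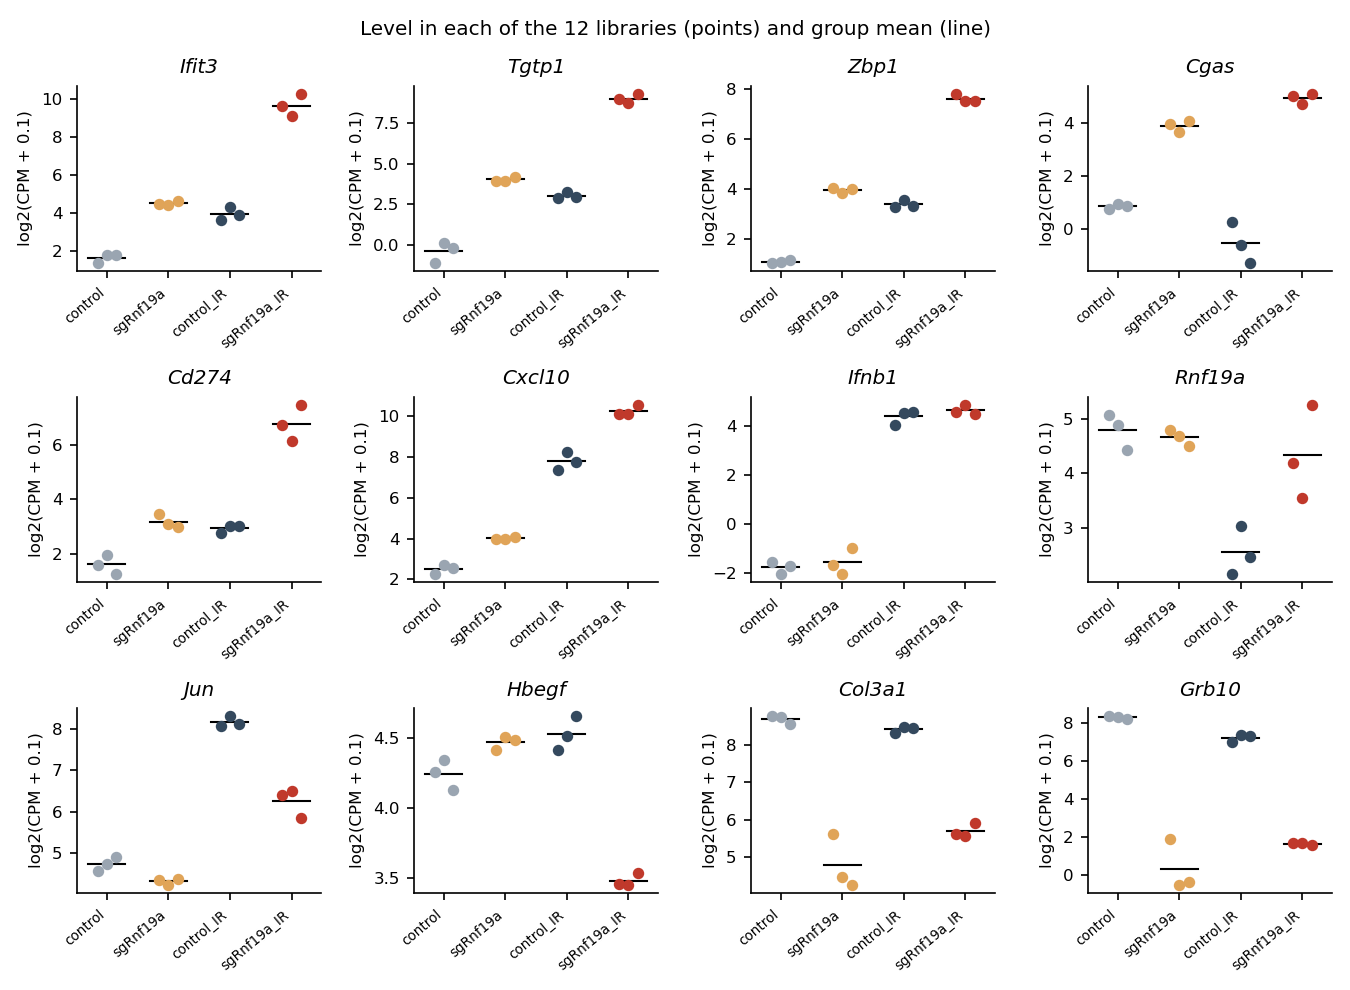
Levels of 12 genes in all 12 libraries, as log2(CPM + 0.1), with points for libraries and lines for group means. Ifit3, Tgtp1, Zbp1, Cgas, Cd274 and Cxcl10 are above control_IR in every sgRnf19a_IR library, Jun, Hbegf, Col3a1 and Grb10 below it, and Ifnb1 overlaps between the groups.

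Promoters of interferon-stimulated genes are shown because this list had the largest share of members called of the lists described here. The 250 bases before the start site are from RefSeq (GRCm38.p6), read on the strand of the gene, and capitals mark each match to GAAA, any 2 bases and GAAA again, or to its reverse complement (TTTC, any 2 bases, TTTC), a spaced pair of the half-sites found in the interferon-stimulated response element. No other motif was searched.
Ifit1 (chr19:34640639-34640888, plus strand): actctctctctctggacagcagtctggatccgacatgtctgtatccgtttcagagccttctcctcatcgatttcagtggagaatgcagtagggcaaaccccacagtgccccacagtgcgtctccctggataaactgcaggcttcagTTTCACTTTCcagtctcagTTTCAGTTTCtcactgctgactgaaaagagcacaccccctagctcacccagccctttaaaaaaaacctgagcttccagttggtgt
Ifit3 (chr19:34583279-34583528, plus strand): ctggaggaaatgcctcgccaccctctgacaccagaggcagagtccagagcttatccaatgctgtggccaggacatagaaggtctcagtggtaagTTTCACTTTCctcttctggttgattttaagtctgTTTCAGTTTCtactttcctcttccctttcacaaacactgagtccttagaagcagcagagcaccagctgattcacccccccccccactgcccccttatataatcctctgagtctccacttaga
Isg15 (chr4:156200819-156201068, minus strand): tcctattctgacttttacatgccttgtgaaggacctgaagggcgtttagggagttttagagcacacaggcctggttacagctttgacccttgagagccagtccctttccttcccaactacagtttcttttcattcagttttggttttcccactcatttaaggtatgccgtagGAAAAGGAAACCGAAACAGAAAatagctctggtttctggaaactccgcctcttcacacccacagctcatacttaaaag
Tgtp1 (chr11:48992247-48992496, minus strand): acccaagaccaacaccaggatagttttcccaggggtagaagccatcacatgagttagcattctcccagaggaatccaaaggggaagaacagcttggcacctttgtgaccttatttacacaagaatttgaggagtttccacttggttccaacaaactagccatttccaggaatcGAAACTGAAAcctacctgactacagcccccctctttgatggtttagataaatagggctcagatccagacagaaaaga
Cxcl10 (chr5:92348890-92349139, minus strand): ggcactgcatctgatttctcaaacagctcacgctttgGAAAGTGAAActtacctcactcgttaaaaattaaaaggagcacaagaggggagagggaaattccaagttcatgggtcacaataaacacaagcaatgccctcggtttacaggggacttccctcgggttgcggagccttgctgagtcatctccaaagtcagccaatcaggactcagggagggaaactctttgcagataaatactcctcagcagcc

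Ifit1 and Ifit3 hold 2 matches each, Isg15 holds 3 that overlap, and Tgtp1 and Cxcl10 hold 1 each. Of the 66 interferon-stimulated genes called higher that have a promoter in the table, 30 held a match (45.5%). The share was 5.07% over 2818 genes called higher, 2.14% over 1725 called lower, 3.3% over 11745 genes tested and 3.46% over all 27025 promoters of the table. Among 241 genes called higher with a log2 fold change of at least 3 it was 17.8%. A match describes letters in the window and does not show that a factor binds there.

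Several sensors of nucleic acids were higher, while the interferon gene Ifnb1 was not called. Of 33 genes of nucleic acid sensing and interferon signalling, 18 were called higher (54.5%) and 5 lower (15.2%), beside 21% and 12.8% of all genes. Their median was 0.64, and 0.22 after the correction with 15 and 2. Cgas (ENSMUSG00000032344, chromosome 9, 78430526 to 78443237), the sensor of cytosolic DNA, was at 1.101, 0.574 and 0.322 CPM in control_IR and at 31.5, 25.6 and 33.1 CPM in sgRnf19a_IR. It was near the bottom of the measurable range in all 3 control_IR libraries and well above it in all 3 sgRnf19a_IR libraries, 46.2-fold higher (log2 fold change 5.53 with an SE of 0.35, edgeR adjusted p = 1.69e-06; corrected 4.99). Tlr3, the endosomal receptor for double-stranded RNA, was at 5.79, 7.66 and 6.01 CPM and at 135, 67.3 and 412 CPM (log2 fold change 4.98, corrected 3.66, 3.97 without sgRnf19a_IR replicate 4). Tlr2, a receptor for bacterial lipoproteins, was at 14.2, 17.6 and 13.3 CPM and at 93.9, 80.4 and 91.95 CPM (log2 fold change 2.56, edgeR adjusted p = 1.84e-06). Zc3hav1, which marks CpG-rich viral RNA for decay, gave 1.45 and 0.85 corrected.

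Sting1, the adaptor that cGAS acts through, was at 279, 298 and 266 CPM in control_IR and at 298, 286 and 274 CPM in sgRnf19a_IR, and the libraries of the groups overlapped (log2 fold change 0.03, edgeR adjusted p = 0.89; -0.11 with upper-quartile scaling). Ifnb1, which encodes interferon beta, was at 16.3, 23.2 and 23.8 CPM and at 23.9, 28.4 and 22.4 CPM, also overlapping (log2 fold change 0.24 with an SE of 0.26, edgeR adjusted p = 0.534; corrected -0.21). A p that misses the threshold does not show that the levels were the same. The 5 genes called lower, chosen after their values were seen, were Socs3, an inhibitor of JAK signalling (log2 fold change -0.91), Tbkbp1, a TBK1 adaptor (-0.84), Irf3, the factor that TBK1 activates (-0.59), Ifngr2, a chain of the interferon gamma receptor (-0.59), and Mavs, the adaptor of the RIG-I-like receptors (-0.55). After the correction Socs3 (-0.34) and Ifngr2 (-0.68) were still called and Tbkbp1 (-0.16), Irf3 (-0.07) and Mavs (-0.24) were not. Leaving out control_IR replicate 1 ended the calls of Tbkbp1, Irf3 and Ifngr2, leaving out control_IR replicate 5 those of Irf3 and Ifngr2, and leaving out control_IR replicate 4 that of Irf3.

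Genes of antigen presentation on MHC class I rose together: 20 of 25 (80%) were called higher, beside 21% of all genes, and 0 lower. There were 0 lower also at an unadjusted p under 0.05 in edgeR and by DESeq2 (median 1.66, corrected 1.99 with 21 and 0). Nlrc5, the transactivator of class I genes, was at 11.3, 15.5 and 13.9 CPM in control_IR and at 121, 86.2 and 154 CPM in sgRnf19a_IR (log2 fold change 3.14 with an SE of 0.22, edgeR adjusted p = 3.08e-06). Tap1, a chain of the peptide transporter, was at 46.6, 56.1 and 59.1 CPM and at 388, 375 and 221 CPM (log2 fold change 2.604), and B2m, the invariant light chain, at 583, 663 and 776 CPM and at 1823, 1910 and 2061 CPM (log2 fold change 1.52, corrected 0.89). All 3 were separated between the groups without overlap. Psmb8, an immunoproteasome subunit, gave 2.56, the heavy chain gene H2-K1 1.97 and the non-classical heavy chain gene H2-T23 2.44. H2-Q4 gave 2.98, but class I heavy chain genes are similar in sequence and their reads can be split, so these values are uncertain one by one.

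Several ligands that T cells and NK cells read were higher too. Of 18 checkpoint and NK ligand genes 10 were called higher (55.6%, beside 21% of all genes) and 0 lower. There were 0 lower also at an unadjusted p under 0.05 in edgeR and by DESeq2 (median 0.56). After the correction 8 were called higher and 1 lower (median 0.61), the latter being Nt5e, chosen after its value was seen. Cd274 (ENSMUSG00000016496, chromosome 19, 29367455 to 29388095), which encodes PD-L1, the ligand of the inhibitory receptor PD-1, was at 6.78, 8.14 and 8.08 CPM in control_IR and at 104, 70.1 and 173 CPM in sgRnf19a_IR. All 3 sgRnf19a_IR libraries were above all 3 of control_IR, with replicate 4 highest. The difference was 15.1-fold (log2 fold change 3.91 with an SE of 0.32, edgeR adjusted p = 1.14e-05; corrected 3.25). Tnfsf10, the death ligand TRAIL, was at 2.63, 7.03 and 6.896 CPM and at 78.1, 46.03 and 116 CPM (log2 fold change 3.85, corrected 2.86). Lgals9, which encodes galectin-9, was at 147, 174 and 149.6 CPM and at 904, 807 and 942 CPM (log2 fold change 2.496).

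Chemokines, cytokines and NF-kB targets moved in both directions, with 22 of 48 called higher (45.8%) and 9 lower (18.8%), beside 21% and 12.8% of all genes. Their median was 0.16, and 0.31 after the correction with 17 and 7. RNA of the genes for ligands of CXCR3, which draw in T cells, was higher. Cxcl10 (ENSMUSG00000034855, chromosome 5, 92346638 to 92348882) was at 165, 299 and 218 CPM in control_IR and at 1100, 1089 and 1466 CPM in sgRnf19a_IR, 5.36-fold higher (log2 fold change 2.42 with an SE of 0.22, edgeR adjusted p = 2.10e-05; corrected 2.17). Cxcl11, which the gene annotation types as a polymorphic pseudogene, was at 12.6, 17.4 and 14.5 CPM and at 47.5, 52.5 and 40.3 CPM (log2 fold change 1.66, corrected 1.06). Cxcl9 was at 2.31, 2.38 and 1.07 CPM and at 9.63, 9.14 and 7.32 CPM (log2 fold change 2.18). The libraries did not overlap, but the call of Cxcl9 was lost after the correction (1.52, edgeR adjusted p = 0.0652) and without control_IR replicate 5. Ccl5, another chemokine that draws in T cells, was at 11.5, 18.8 and 10.3 CPM and at 62.4, 74.7 and 91.1 CPM (log2 fold change 2.49). Lif, a cytokine of the IL-6 family, gave 1.36, and the adhesion receptor gene Vcam1 1.41, 0.43 after the correction.

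Ligands of CXCR2, the receptor of neutrophils, were lower; these genes were chosen after their values were seen. Cxcl1 was at 65.3, 91.3 and 87.3 CPM in control_IR and at 48.3, 53.1 and 40.6 CPM in sgRnf19a_IR (log2 fold change -0.78 with an SE of 0.16, edgeR adjusted p = 0.00355; corrected -1.23). Cxcl5 was at 2.81, 3.499 and 3.52 CPM and at 0.766, 0.552 and 0.665 CPM (log2 fold change -2.299, edgeR adjusted p = 0.00123; corrected -3.03). Cxcl2 was at 21.3, 25.7 and 4.86 CPM and at 1.65, 1.31 and 1.06 CPM. Its control_IR replicate 5 stood well below replicates 1 and 4, and its call (log2 fold change -3.68, edgeR adjusted p = 0.03) was lost when control_IR replicate 1 or 4, or any 1 sgRnf19a_IR library, was left out.

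Many immediate early genes of the MAPK pathway, which growth factor and stress kinases switch on within minutes, were lower. Of 38, 23 were called, 19 of them lower, beside 12.8% of all genes called lower (median -0.43, corrected -0.17, with 12 lower and 5 higher). Jun (ENSMUSG00000052684, chromosome 4, 95049034 to 95052222), a subunit of the AP-1 factor, was at 269, 316 and 276 CPM in control_IR and at 84.6, 90.7 and 57.6 CPM in sgRnf19a_IR. The groups did not overlap, and the level was 3.697-fold lower (log2 fold change -1.89 with an SE of 0.17, edgeR adjusted p = 2.49e-05; corrected -1.51). Egr3, a zinc finger factor, was at 16.8, 22.7 and 20.3 CPM and at 7.54, 4.11 and 3.41 CPM (log2 fold change -1.99). Hbegf, a ligand of the EGF receptor, was at 21.2, 22.7 and 25.04 CPM and at 10.8, 10.8 and 11.5 CPM (log2 fold change -1.06 with an SE of 0.12, edgeR adjusted p = 1.49e-04; corrected -0.93). Its sgRnf19a_IR libraries were nearly equal and all below control_IR. Dusp1, a MAPK phosphatase, gave -1.09, whereas Atf3 was not called (0.26, edgeR adjusted p = 0.436). Among the members called higher, chosen after their values were seen, were Egr1 (log2 fold change 0.596, call lost without control_IR replicate 1) and the ERK phosphatase gene Dusp6 (0.66).

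Of the 76 called genes at least 16-fold lower, 29 were also called lower by the guide in untreated cells. All 12 genes named next were also called lower in untreated cells. They are the largest falls among genes with a mean of at least 2 CPM that met the other naming criteria. Of them Nrep (-3.97) fell just short of 16-fold. Genes with few counts fell further on the fitted scale. Grb10 (ENSMUSG00000020176, chromosome 11, 11930508 to 12037401), an adaptor that restrains insulin and IGF receptor signalling and is imprinted, was at 128, 168 and 160.5 CPM in control_IR and at 3.11, 3.17 and 2.88 CPM in sgRnf19a_IR. The 3 sgRnf19a_IR libraries lay within a narrow range at the foot of the scale. Its level was 49.9-fold lower (log2 fold change -5.64 with an SE of 0.59, edgeR adjusted p = 6.19e-05; corrected -5.99), and without IR it stood at 319.6 ± 15.2 CPM in control and 1.63 ± 1.71 CPM in sgRnf19a (SD, n = 3 per group). Gngt2, a G protein gamma subunit gene, was at 28.7, 31.8 and 31.6 CPM and at 1.35, 2.42 and 1.36 CPM (log2 fold change -4.18). Esx1, a homeobox gene, was at 21.2, 14.1 and 18.3 CPM in control_IR and had 19 counts over the 3 sgRnf19a_IR libraries, Tbx18, a T-box factor, 7.56, 13.3 and 7.004 CPM and 18 counts, and Crip1 5.75, 3.38 and 3.54 CPM and 12 counts. Gpr149 was at 6.07, 7.69 and 7.62 CPM and had 6 counts, Gng11 4.402, 3.24 and 5.77 CPM and 10 counts, and Cd163, best known as the haemoglobin scavenger receptor of macrophages, 5.04, 6.396 and 5.96 CPM and 9 counts. With so few counts, 4 of them to a read pair, no fold is given for these 6. Sdr39u1 (log2 fold change -4.92), Lrp3 (-4.13), Tmem98 (-4.01) and Nrep (-3.97) complete the 12, with corrected values of -4.25, -3.403, -3.301 and -4.68.

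Matrix genes were divided. Of 57 genes of collagens and extracellular matrix, 16 were called lower (28.1%) and 6 higher (10.5%), beside 12.8% and 21% of all genes. The list median was -0.0040 (corrected -0.07, with 12 lower and 4 higher). Col3a1 (ENSMUSG00000026043, chromosome 1, 45311538 to 45349706), a fibrillar collagen, was at 323, 361 and 355 CPM in control_IR and at 49.4, 47.1 and 59.8 CPM in sgRnf19a_IR, 6.65-fold lower (log2 fold change -2.73 with an SE of 0.302, edgeR adjusted p = 9.42e-05). Col6a1, of the beaded filaments, was at 103, 95.3 and 100.3 CPM and at 23.2, 17.4 and 13.98 CPM (log2 fold change -2.45). Both were well apart between the groups, as they were without IR, where the log2 fold changes were -3.801 and -2.296. Serpine2, a protease inhibitor, gave -1.34 and the matrix glycoprotein gene Tnc -1.08. Pdgfrb, a PDGF receptor, was at 18.1, 18.4 and 18.5 CPM and at 4.15, 4.11 and 4.13 CPM (log2 fold change -2.15). Ephb2, an ephrin receptor that is also 1 of 12 intestinal epithelium markers, gave -3.59. Those 12 summed to 28.9 to 36.0 CPM in control_IR and 8.33 to 9.76 CPM in sgRnf19a_IR. Without IR the sums were 32.9 to 39.8 CPM in control and 8.38 to 9.29 CPM in sgRnf19a. Of the 6 tested with IR, 1 was called lower (16.7%, beside 12.8% of all genes) and 0 higher (median -0.843, corrected -0.54). The summed level of 12 fibroblast markers, to which Col3a1 and Pdgfrb belong, was 626 to 688 CPM in control_IR and 289 to 381 CPM in sgRnf19a_IR, and most of that difference is Col3a1 itself. The median log2 fold change of the 12 was 0.76 (corrected 0.49). Col3a1, Pdgfrb and Pdpn were called lower and Postn and Fap higher, Postn no longer after the correction and Fap from 0 counts in control_IR with 0 in sgRnf19a_IR replicate 1 as well, and their part in the result was not tested. Elastin (Eln) went the other way, at 0.142, 0.258 and 0 CPM against 31.4, 13.9 and 28.9 CPM, but its call was lost when any 1 of the 6 libraries was left out. Without IR it also varied widely within groups, at 0.111, 25.5 and 7.58 CPM in control and 22.65, 0.039 and 0.289 CPM in sgRnf19a. Cdh15, a cadherin of muscle (0, 0.316 and 0.107 against 13.6, 14.4 and 11.3 CPM), and Dynap (8 counts in control_IR against 511) were the other non-interferon genes among the 12 largest rises.

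Junction genes split. Of 23 keratin and epithelial junction genes 10 were called, 6 of them lower (26.1%, beside 12.8% of all genes, median -0.10). After the correction 5 were called higher and 2 lower (median -0.09). Dsp, which anchors keratin to desmosomes, was at 1.56, 0.8604 and 1.13 CPM in control_IR and at 33.9, 19.5 and 35.7 CPM in sgRnf19a_IR, 25.3-fold higher (log2 fold change 4.66, corrected 4.38). F11r, a tight junction adhesion molecule, was at 12.5, 13.5 and 11.6 CPM and at 71.2, 56.4 and 59.9 CPM (log2 fold change 2.32). Krt8 was 274, 318 and 151 CPM in sgRnf19a_IR, below the 3 control_IR values given above (log2 fold change -1.36, corrected -0.82).

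Genes of mitosis and of DNA repair were called higher in numbers that fell after the correction. Of 54 mitosis and G2/M genes 30 were called higher (55.6%) and 7 lower (13%), beside 21% and 12.8% of all genes (median 1.07). After the correction 16 and 9 were called (median 0.28). Without sgRnf19a_IR replicate 4 there were 23 higher, with a median of 0.38. Hmmr, a spindle protein, was at 16.2, 22.8 and 18.8 CPM in control_IR and at 66.6, 42.1 and 210.2 CPM in sgRnf19a_IR (log2 fold change 2.46, corrected 1.35, 1.5 without that replicate). Nusap1, which bundles spindle microtubules, gave 1.77 and 0.84 corrected, the cytokinesis gene Ect2 2.12 and 0.93, and the kinetochore gene Ndc80 2.21 and 1.204. Without replicate 4 Nusap1 was at 1.31, Ect2 at 1.37 and Ndc80 at 1.41. Mki67, the proliferation marker, was at 24.1, 22.1 and 20.1 CPM and at 30.6, 39.5 and 145 CPM (log2 fold change 1.696, edgeR adjusted p = 0.0324). Replicate 4 alone stood far above the rest, the value without it was 0.665, and the call was lost after the correction (0.71, edgeR adjusted p = 0.187) and when that replicate or any 1 control_IR library was left out.

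Of 41 genes of double-strand break repair 28 were called, 25 of them higher (61%, beside 21% of all genes, median 1.05). After the correction 12 were called higher and 6 lower (median 0.29). Without sgRnf19a_IR replicate 4 there were 16 higher, with a median of 0.46. Nbn, of the MRN complex that binds broken ends, was at 6.07, 10.96 and 7.19 CPM in control_IR and at 21.1, 16.9 and 55.6 CPM in sgRnf19a_IR (log2 fold change 1.95, corrected 1.28, 1.23 without replicate 4). Fancd2, of the crosslink repair pathway, gave 1.67, 0.95 corrected and 1.16 without replicate 4. H2ax, the histone phosphorylated at breaks, was lower, at 124, 104 and 112 CPM and at 43.7, 52.5 and 31.6 CPM (log2 fold change -1.41, corrected -0.47). In all of these the 3 and 3 libraries did not overlap. The 49 replication and G1/S genes had 10 called higher (20.4%, near the 21% of all genes) and 12 lower (24.5%, beside 12.8%). Their median was -0.17 (corrected -0.21, with 4 and 19), and Mcm6, of the replicative helicase, was among those higher (1.06).

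Targets of p53 showed no common direction: 12 of 40 were called higher (30%) and 7 lower (17.5%), beside 21% and 12.8% of all genes. Their median of -0.17 became 0.08 after the correction (16 higher, 5 lower). Cdkn1a, which encodes the cell cycle inhibitor p21, was at 444, 371 and 442 CPM in control_IR and at 376, 426 and 214 CPM in sgRnf19a_IR, and the groups overlapped (log2 fold change -0.31, edgeR adjusted p = 0.293; corrected 0.05). Ddb2, of nucleotide excision repair, was at 2.38, 1.72 and 1.85 CPM and at 5.92, 9.799 and 12.2 CPM (log2 fold change 2.23). Apaf1, of the apoptosome, gave 1.92 (1.13 corrected) and Pmaip1, which encodes NOXA, 1.84 (1.02 corrected). Of 27 cell death genes 12 were called, 10 of them higher (37%, beside 21% of all genes). Their median was -0.01, and 0.14 after the correction, with 10 higher and 4 lower. Mlkl, the executor of necroptosis, was at 46.2, 59.97 and 55.9 CPM and at 141, 118 and 236 CPM (log2 fold change 1.61, 1.27 without sgRnf19a_IR replicate 4). The BH3-only gene Bid gave 0.87, while Bmf, of the same class, was lower (-1.58).

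Stress and metabolic lists differed in direction. Beside them, 21% of all genes were called higher and 12.8% lower, and 14.4% and 15.5% after the correction. The shares called higher of lysosomal genes (20.6%) and of glycolysis and hypoxia genes (17.6%) were near that of all genes. Of 24 targets of NRF2, the oxidative stress factor, 10 were called, 8 of them lower (median -0.37, corrected -0.23 with 10 lower and 3 higher). The quinone reductase gene Nqo1 was at 205, 214 and 205 CPM in control_IR and at 113, 134 and 86.9 CPM in sgRnf19a_IR (log2 fold change -0.904), and Gstp1 gave -1.62 (-1.02 corrected), Srxn1 -1.04 and Osgin1 -1.88 (-1.24 corrected). Of 30 cholesterol synthesis genes 15 were called, 11 of them lower (median -0.16, corrected -0.37 with 15 lower and 3 higher), among them Dhcr7, the last enzyme of the pathway (-1.196), Mvd (-1.12, corrected -0.45) and Sqle (-0.59). The 23 heat shock genes had 10 called higher and 6 lower (median 0.34), and 6 and 7 after the correction (median 0.09). The small heat shock gene Hspb1 was at 199.6, 161 and 172 CPM and at 50.7, 58.3 and 27.2 CPM (log2 fold change -1.97, corrected -1.06), and the co-chaperone gene Dnaja1 gave 1.37, no longer called after the correction (0.28). The 83 cytosolic ribosomal protein genes had 6 called, beside 33.8% of all genes, with a median of -0.37, but after the correction 12 were called higher and 23 lower (median -0.11). The unfolded protein and integrated stress response list had 9 of 32 called higher and 2 lower (median 0.17, corrected 0.25 with 12 and 2), and lysosomal genes 7 of 34 higher and 1 lower (0.12, corrected 0.28 with 9 and 3). Glycolysis and hypoxia genes, 34 tested, had 6 called in each direction (-0.21, corrected -0.06 with 6 and 7). Nuclear genes of the respiratory chain, 39 tested, had 2 higher and 6 lower (-0.40, corrected -0.29 with 6 and 16), the 13 mitochondrially encoded genes 2 higher and 1 lower (0.18, corrected -0.53 with 0 and 6), and 31 proteasome genes 5 higher and 0 lower (-0.02, corrected 0.07 with 7 and 5).

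Genes of 2 kinds relate to the series title. Of 15 RING-between-RING ligases 6 were called higher (40%, beside 21% of all genes) and none lower by edgeR. There were 0 lower at an unadjusted p under 0.05, and 0 by DESeq2, and the median was 0.21. After the correction 6 were called higher and 1, Rnf217, lower (median 0.18), a gene named after its value was seen. Rnf19b, the closest relative of Rnf19a, was at 59.5, 58.2 and 55.9 CPM in control_IR and at 127, 116 and 72.6 CPM in sgRnf19a_IR (log2 fold change 0.86 with an SE of 0.19, edgeR adjusted p = 0.00585). Rnf14 gave 1.39 (1.05 without sgRnf19a_IR replicate 4) and Ankib1 1.38 (0.45 corrected, 1.03 without that replicate). Rps6ka1, which encodes RSK1, was at 47.5, 33.8 and 43.3 CPM and at 33.7, 37.7 and 20.1 CPM with overlapping groups (log2 fold change -0.45, edgeR adjusted p = 0.141; corrected 0.03). Of the other RSK and MSK genes Rps6ka2 was lower (-0.799), and Rps6ka3 (1.64), Rps6ka5 (1.83) and Rps6ka6 (1.34) were called higher. None of those 3 was called after the correction (0.201, 0.73 and 0.15), and without sgRnf19a_IR replicate 4 they were at 0.815, 1.2 and 0.666, with the calls of Rps6ka5 and Rps6ka6 lost. The Rps6ka6 call was also lost without control_IR replicate 1 or 5.

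The guide effect with IR was set beside the effect without it, which shares no libraries with it but comes from the same fit. In untreated cells 1131 genes were called (6.22%). Of these, 899 were also called in the same direction with IR (4.94% of genes), 79.5% of the untreated calls and 14.6% of the calls with IR, and 5 in the opposite direction (0.0275% of genes). Interferon-stimulated genes had 71 of 89 called higher without IR, beside 3.02% of all genes, with a median of 2.08 against 3.37 with IR. Ifit3 had a log2 fold change of 2.895 without IR, Tgtp1 4.51, Zbp1 2.92, Cgas 3.09, Isg15 2.66 and Cd274 1.57, and each was called. Jun (-0.42, edgeR adjusted p = 0.217) and Tlr2 (0.46, edgeR adjusted p = 0.129) were not called without IR.

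**Figure D4:**
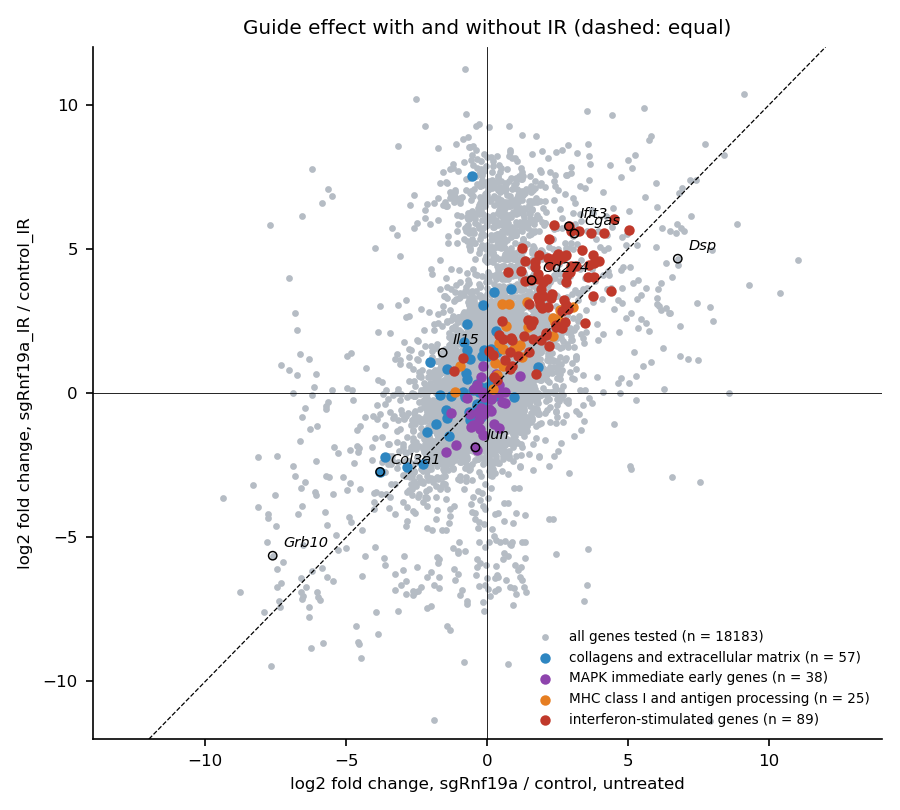
Each point is a gene, with the log2 fold change of the guide in untreated cells on the horizontal axis and in IR-treated cells on the vertical axis; colours mark 4 gene lists and the dashed line is where both are equal. Interferon-stimulated genes (red, n = 89) lie mostly above the line, at medians of 2.08 and 3.37, while Grb10 and Col3a1 are low on both axes and Jun is low on the vertical axis.

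The difference between the 2 guide effects was called for 124 genes (0.682%), 99 with a more positive effect under IR (0.544%) and 25 with a more negative one, and 18 of the 99 are interferon-stimulated genes. For Ifit3 the difference was 2.89 on the log2 scale (an SE of 0.38, edgeR adjusted p = 0.0154), for Cgas 2.44 (an SE of 0.42, edgeR adjusted p = 0.0318) and for Cd274 2.34 (an SE of 0.42, edgeR adjusted p = 0.0318). Jun gave -1.47 (an SE of 0.24, edgeR adjusted p = 0.0255). These calls rest on few libraries: without control_IR replicate 5 there were 5 called genes, without control_IR replicate 1 there were 23, without sgRnf19a_IR replicate 1 there were 34, without control_IR replicate 4 there were 81, and without sgRnf19a_IR replicates 3 or 4 there were 2624 or 500. After the correction 469 were called (2.58%), and leaving out single libraries then gave 143 to 1529.

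The 5 genes with opposite calls include Il15, a cytokine that sustains NK and memory T cells. It was at 4.296, 5.02 and 4.64 CPM in control_IR and at 12.8, 12.3 and 11.8 CPM in sgRnf19a_IR (log2 fold change 1.401), but at 1.29 ± 0.25 CPM in control and 0.428 ± 0.0488 CPM in sgRnf19a without IR (-1.58; SD, n = 3 per group). Every sgRnf19a_IR library was above control_IR, and the untreated means stood the other way round. Dll1, a Notch ligand, was at 5.89, 5.16 and 6.57 CPM and at 17.7, 16.8 and 12.1 CPM with IR (1.4) and at 3.05 ± 0.9399 and 1 ± 0.149 CPM without (-1.61). Fmnl2, an actin nucleator, gave 1.39 with IR (0.45 corrected) and -1.02 without. Sesn3, a stress-induced regulator of mTORC1, gave 0.84 and -1.67, but the first was -0.14 after the correction and its call was lost without sgRnf19a_IR replicate 4 or control_IR replicate 1. Lrrc29 gave -0.63 and 0.94, and its call with IR was lost after the correction (-0.26) and when any 1 of the 6 libraries was left out. The differences of Il15, Dll1 and Tlr2 were still called whichever single IR-treated library was left out.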

How the data were processed

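RNA-seq counts of 12 libraries in 4 groups of 3 were analysed. Per the labels' protocols RNA was extracted with a Qiagen kit, depleted of ribosomal RNA, made into strand-marked libraries and sequenced on an Illumina instrument; the submitters' processing notes name Bowtie2, HTSeq, DESeq2, mm10 and GRCm39 without versions or roles, and use of strand in counting is not given in the sources used here, so overlapping genes are uncertain. The authors deposited whole-number gene counts, which in long genes pile up at 4 (value 3: 989 times, 4: 5958, 5: 1000), so they were treated as estimated counts with about 4 to a read pair, and an FPKM table, which per the file headers has 1 column per library. A further 12 per-sample columns were not used. Counts were above 0 for 29550 of 55401 genes. Coordinates come from the FPKM table, where 26714 of the 29456 gene IDs found in GENCODE M21 (mm10) sat at the same position. Untreated columns match their labels; the 6 columns with a D were placed in the IR groups because no other group was left.

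The members and gene lists were chosen with earlier results of these data known. In R 4.3.3, edgeR 4.0.16 fitted the quasi-likelihood model (robust, TMM, filterByExpr with a minimum count of 10 and total of 15) to all 12 libraries with 4 group means, 2-sided, and 18183 genes were tested. The correction used splines with 5 degrees of freedom on length and GC content of the longest GENCODE M21 transcript, per library, as an offset. Named genes were Rnf19a, the 12 called genes with the largest rise and the 12 with the largest fall (at least 2 CPM on average, groups apart, called also after the correction, no predicted genes), up to 4 per list by p, and a fixed set; others are said to be chosen after their values were seen, and a few genes that met the rule are not reported here. Alternatives were DESeq2 1.42.0, other scalings and filters, limma 3.58.1 on log2(FPKM + 1) and log2(FPKM + 0.1), a replicate block and leaving out single libraries; fold changes on FPKM understate low genes. Same-numbered IR libraries did not deviate together (correlations of -0.0029 for number 1 and 0.079 for number 4), so numbers were not taken as pairs. No library was a copy: within a group all pairs differed beyond counting noise. On simulated data for this comparison (17217 genes) edgeR found 36 of the 100 genes simulated at 2-fold, 87 of the 100 at 4-fold and 4 unchanged ones. There the sgRnf19a_IR means equalled control_IR apart from the changed genes, and counts were drawn independently. The simulation thus held no trend with length or GC content between these groups, and the 4 do not measure false calls in the real data. Count intervals would cover counting error only, since no molecular identifiers were used. Figures were drawn with matplotlib 3.10.9.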

Additional observations from a re-analysis of the deposited data

Results flagged for a closer look

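For 22 of the genes named above the guide effect with IR differed from the guide effect without IR, by the interaction term of the edgeR fit over 12 libraries; values are differences of log2 fold changes (with IR minus without), with 3 libraries per group. Larger rises with IR were found for the interferon-stimulated genes Ifit1bl1 (3.45), Ifit3 (2.89), Ifit3b (2.67), Ifit1 (2.31), Ifi47 (1.995), Tgtp2 (1.85), Zbp1 (1.29) and Usp18 (1.16), with edgeR adjusted p from 0.011 (Ifi47) to 0.0341 (Usp18). Among sensors, ligands and presentation genes they were found for Cgas (2.44), Tlr2 (2.103, edgeR adjusted p = 0.00628), Cd274 (2.34) and Nlrc5 (1.75). Il15, called lower without IR (-1.58) and higher with it, had a difference of 2.98 (edgeR adjusted p = 0.00492). F11r (1.21), Dnaja1 (1.596), Mcm6 (1.03), Dll1 (3.01), Sesn3 (2.505) and Fmnl2 (2.404) also had a more positive effect with IR. A more negative effect was found for Jun (-1.47), Hbegf (-1.28) and Dsp (-2.098, edgeR adjusted p = 0.0496). Dsp was higher with the guide in both settings, at a log2 fold change of 6.76 without IR and 4.66 with IR.

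How many of the 22 were still called depended on the libraries: 3 without control_IR replicate 5, 8 without control_IR replicate 1, 9 without sgRnf19a_IR replicate 1, 17 without control_IR replicate 4, and 22 without sgRnf19a_IR replicate 3 or 4. After the length and GC correction 21 were called, Dnaja1 being lost, and 19 to 22 when single IR-treated libraries were also left out. Il15, Tlr2 and Dll1 were called in each of these fits without a correction.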

How the results depend on the processing

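The count of genes called higher with IR, 3812, was 1639 with only the 6 IR-treated libraries, 2537 by limma on log2(FPKM + 1) (50.8% of calls higher) and 1381 without its filter (46.8%), and 2459 to 4443 without single libraries, 1847 to 3087 with the correction as well. The count called lower, 2328, was 1158 with 6 libraries, 867 at an absolute log2 fold change of at least 1 (75% higher) and 1418 to 3169 without single libraries. Untreated calls, 1131, were 1766 by DESeq2, 1746 after the correction and 745 with the fold threshold; leaving out single IR-treated libraries, which changes the shared spread, gave 941 to 2116, and up to 2601 with the correction. Differences of the guide effect, 124, were 1688 by DESeq2, 469 after the correction, 55 on log2(FPKM + 0.1), 5 to 2624 without single libraries and 143 to 1529 with the correction as well; with 6 libraries they cannot be computed. With a replicate block on column numbers, which are not known to pair libraries, 4138 genes were called higher and 3228 lower, the differences numbered 3112 and Sting1 was -0.0123. Sting1, 0.03 in the report, was -0.107 with upper-quartile factors and -0.013 to 0.22 over all fits without a single library. After the correction the sign turned for Ifnb1 (-0.214), Cdkn1a (0.0538), Rps6ka1 (0.0315) and Sesn3 (-0.14), and over fits without single libraries, corrected or not, they ranged from -0.331 to 0.333, -0.505 to 0.153, -0.627 to 0.0958 and -0.244 to 1.03, and Rps6ka6 from -0.0243 to 1.67. Of 117 named genes none changed sign and none lost its call with DESeq2 or with counts divided by 4, the latter chosen after the data were seen. The cause of these shifts was not tested. One read pair is worth about 4 counts, so levels under 12 counts over a group are at the floor.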

Other observations

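Chromosomes differed in level between the guides, a pattern chosen after the data were seen. Of 570 protein-coding genes tested on chromosome 15, 39.6% were called lower with the guide in IR-treated cells and 14.9% higher. Of 680 protein-coding genes on chromosome 3, 41% were called higher and 3.97% lower. Over all protein-coding genes tested 24.4% were called higher and 15.4% lower. The median level of expressed genes of chromosome 15, relative to all protein-coding genes of the same library and after the length and GC correction, differed by -0.312 on the log2 scale between sgRnf19a_IR and control_IR, and by -0.302 without IR. On chromosome 3 the differences were 0.265 and 0.258. In each case all 6 sgRnf19a libraries lay on one side of all 6 control libraries (exact permutation test within treatment, 2-sided, p = 0.005, the smallest the design allows; adjusted p = 0.02 over 20 chromosomes). That p is not particular to them: chromosomes 1, 2 and 17 had the same p with smaller differences under IR (-0.0275, -0.0516 and 0.1), and chromosomes 4 and 9 had exact permutation adjusted p of 0.0333 and 0.0429 (0.0327 and 0.062). Along chromosome 15 the corrected median log2 fold change of the guide with IR was 0.199 in the first 20 Mb and -0.277 to -0.412 in the other windows of 20 Mb. Along chromosome 3 it was 0.329 to 0.378 in the windows from 60 to 120 Mb and 0.166 from 20 to 40 Mb. In the other windows of chromosome 3 it was -0.143 to -0.0367. Rnf19a lies on chromosome 15.

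Zinc finger genes with Zfp symbols, 350 tested, had 160 called higher (45.7%) and 32 lower (9.14%), beside 21% and 12.8% of all genes (median 1). After the correction there were 82 and 34 (median 0.30). Without sgRnf19a_IR replicate 4 there were 104 higher, with a median of 0.45. Replication-dependent histone genes, 59 tested, had a median of -0.36, and -0.02 after the correction. By gene type 24.4% of 13983 protein-coding genes were called higher and 15.4% lower, against 6.94% and 2.05% of 1513 processed pseudogenes.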
